A study of Arabidopsis thaliana with 9 samples.

Results

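BGLU45, BGLU46 and BGLU47 are beta-glucosidase genes of Arabidopsis thaliana that form the monolignol glucoside group of glycoside hydrolase family 1 (GH1). They were selected as the probe sets paired with exactly 1 gene bearing one of these symbols, which gave 3 probe sets, 1 for each gene, out of 16550 genes named in this way. Their levels were followed in roots of the mutant lines myb36-1 and myb36-2 (line code GK543B11) and of the wild type Col-0, with 3 Affymetrix arrays per line and 9 in all. Plants of all lines were 2 weeks old and had grown at 22 °C on agar plates of MGRL, a defined nutrient medium, with sucrose, and no treatment was applied to any line. The kind of mutation in each line is not given in the sources used here. MYB36 itself was not named by any probe set, so the line labels were not checked against its transcript.

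Monolignols, the alcohols from which lignin is polymerised, are kept in plants partly as glucosides such as coniferin and syringin. UDP-glucosyltransferases of the UGT72E group attach the glucose, and beta-glucosidases remove it, which returns the free alcohol that laccases and peroxidases can oxidise. BGLU45 and BGLU46 are known from recombinant enzymes to hydrolyse monolignol glucosides, BGLU45 with the narrower and BGLU46 with the broader choice of substrates, whereas BGLU47 is placed with them by its sequence. MYB36 is a transcription factor of the root endodermis known to switch on the genes that build the Casparian strip, a ring of lignin around each endodermal cell, so the comparison asks whether transcripts of these glucosidases differ in roots of the lines labelled as MYB36 mutants.

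The deposited values are log2 expression values made by the authors with RMA. The median over the 31325 tested probe sets was 5.07 to 5.09 in the myb36-1 arrays, 5.30 to 5.34 in the myb36-2 arrays and 5.09 to 5.11 in the Col-0 arrays, so the myb36-2 arrays stood on a higher scale. Across these probe sets the median change was 0.16 in myb36-2 and -0.01 in myb36-1, in log2 units. The changes in myb36-2 are therefore also given on a common scale, for which the 9 arrays were quantile normalised together, and there its median change was -0.01. Of all tested probe sets, 19.3% were called higher and 2.02% lower in myb36-2 with the values as deposited, against 4.65% and 5.46% on the common scale. Scale and line coincide in myb36-2 and cannot be told apart. Of 7 root marker genes 3 were measured, and EXPA7, EXPA18 (both root hair expansins) and PYK10 (a root beta-glucosidase) passed in no comparison of lines. Of 6 leaf marker genes 2 were measured: RCA, encoding rubisco activase, fell by 0.50 in myb36-2 (adjusted p = 0.015 in limma) and by 0.67 on the common scale (adjusted p = 0.0084 in limma), and LHCB4.1, a light-harvesting gene, did not pass. The part of such leaf or green-tissue transcripts in the results on myb36-2 was not tested. None of the 4 endodermis markers listed was named by a probe set. The RNA came from whole roots, in which fewer cells of a type and less RNA per cell cannot be told apart. Whether the 3 arrays of a line stand for separately grown plants is not given in the labels, and the p-values rest on the spread among arrays, which may be technical.

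None of the 3 glucosidase genes changed in either mutant relative to Col-0 in the test across all probe sets. BGLU45 lay lower and BGLU47 higher in the means of both mutants, without passing. As deposited the folds were 0.81 and 1.27 in myb36-1 and 0.90 and 1.33 in myb36-2. On the common scale those in myb36-2 were 0.74 for BGLU45 and 1.09 for BGLU47. BGLU46 was the exception between the mutant lines: it was lower in myb36-1 than in myb36-2, a difference that passed with the deposited values but was lost on the common scale. A gene was called when its limma p, adjusted by the Benjamini-Hochberg method over all 31325 tested probe sets, was under 0.05.

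**Figure D1:**
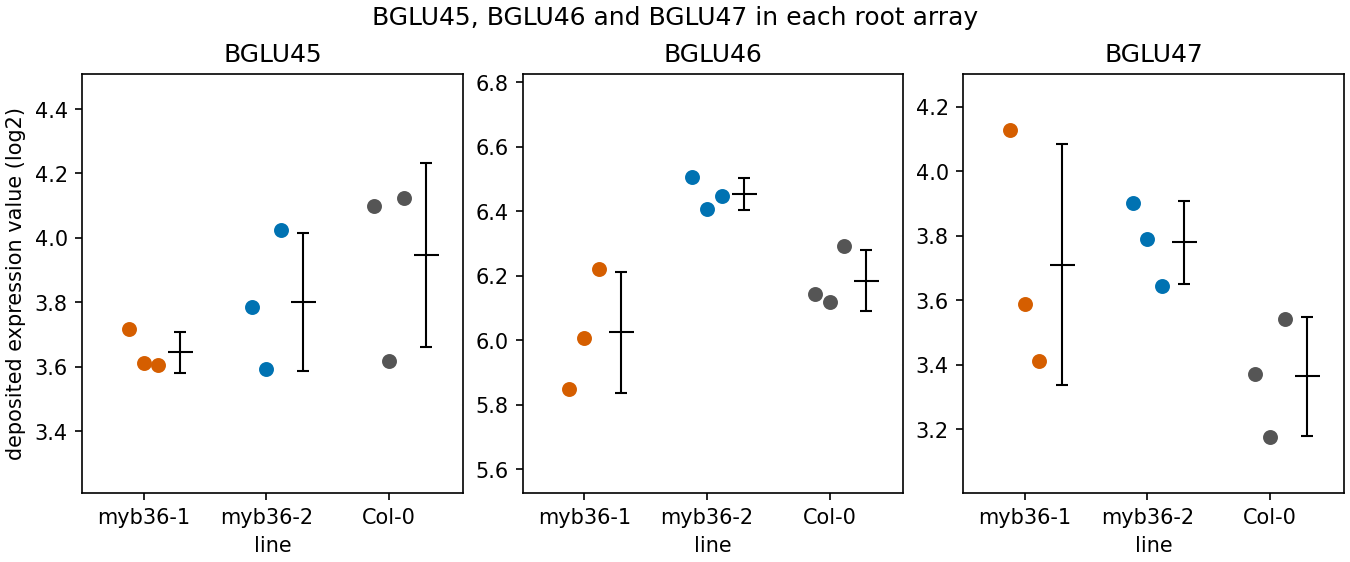
Deposited log2 expression values of BGLU45, BGLU46 and BGLU47 (vertical axes, each spanning the same range of log2 units) in the 3 arrays of myb36-1, myb36-2 and Col-0; points are arrays, and the bar beside them is the mean with 1 SD. The myb36-2 arrays of BGLU46 lie from 6.41 to 6.51, above all other arrays, while for BGLU45 the lines overlap. For 35.9% of all tested probe sets the myb36-2 arrays lie above all Col-0 arrays.

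BGLU45, on chromosome 1 (AT1G61810), encodes the glucosidase with the strongest known preference for monolignol glucosides. Its deposited log2 values were 3.72, 3.61 and 3.61 in myb36-1, 3.79, 3.59 and 4.02 in myb36-2, and 4.1, 3.62 and 4.12 in Col-0. A pair of Col-0 arrays stood highest, the third Col-0 array lay among the mutant arrays, and the lines overlapped. The means were 3.65 ± 0.06 in myb36-1, 3.80 ± 0.22 in myb36-2 and 3.95 ± 0.29 in Col-0 (SD, n = 3 each), and no neighbours in this order differed beyond their spread in the test. The log2 change was -0.30 ± 0.15 (SE) in myb36-1, with a 95% interval from -0.65 to 0.04 and an adjusted p of 0.52 in limma. In myb36-2 it was -0.15 ± 0.15, with an interval from -0.49 to 0.20 and an adjusted p of 0.52 in limma. The common scale gave a larger change in myb36-2, -0.43 ± 0.15, with an interval from -0.78 to -0.08, and still did not pass (adjusted p = 0.11 in limma). Written as a fold, the interval for myb36-1 as deposited ran from 0.639 to 1.03.

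BGLU46 (AT1G61820), the glucosidase with the broader substrate range, lies next to BGLU45 among protein-coding genes, with 2 non-coding genes annotated between them. Its values were 5.85, 6.01 and 6.22 in myb36-1, 6.51, 6.41 and 6.45 in myb36-2, and 6.14, 6.12 and 6.29 in Col-0. All myb36-2 arrays were above all Col-0 arrays as deposited, as they were for 35.9% of all tested probe sets, and the myb36-1 arrays overlapped with those of Col-0. The means were 6.02 ± 0.19 in myb36-1, 6.45 ± 0.05 in myb36-2 and 6.19 ± 0.09 in Col-0 (SD, n = 3 each). Against Col-0 the log2 change was -0.16 ± 0.10 in myb36-1 (95% interval from -0.40 to 0.08, adjusted p = 0.64 in limma) and 0.27 ± 0.10 in myb36-2 (95% interval from 0.03 to 0.50, adjusted p = 0.096 in limma). On the common scale the change in myb36-2 was 0.09 ± 0.10, with an adjusted p of 0.62 in limma, and the arrays of myb36-2 and Col-0 overlapped.

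BGLU47 (AT4G21760), on chromosome 4, is the member assigned by sequence. It read 4.13, 3.59 and 3.41 in myb36-1, 3.90, 3.79 and 3.65 in myb36-2, and 3.37, 3.18 and 3.54 in Col-0. The first myb36-1 array stood highest of all 9, and the remaining myb36-1 arrays lay within or near the Col-0 range. As deposited all myb36-2 arrays were above all Col-0 arrays, which held for 35.9% of all tested probe sets, and on the common scale they overlapped. The means were 3.71 ± 0.37 in myb36-1, 3.78 ± 0.13 in myb36-2 and 3.36 ± 0.18 in Col-0 (SD, n = 3 each). The log2 change was 0.35 ± 0.18 in myb36-1 (95% interval from -0.05 to 0.75, adjusted p = 0.52 in limma) and 0.42 ± 0.18 in myb36-2 (95% interval from 0.02 to 0.82, adjusted p = 0.12 in limma). Without myb36-1 replicate 1 the change in myb36-1 was 0.14. The same omission left the change in myb36-2 at 0.42 and brought it past the threshold (adjusted p = 0.042 in limma). The change in myb36-2 was 0.12 ± 0.17 on the common scale, without passing.

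**Figure D2:**
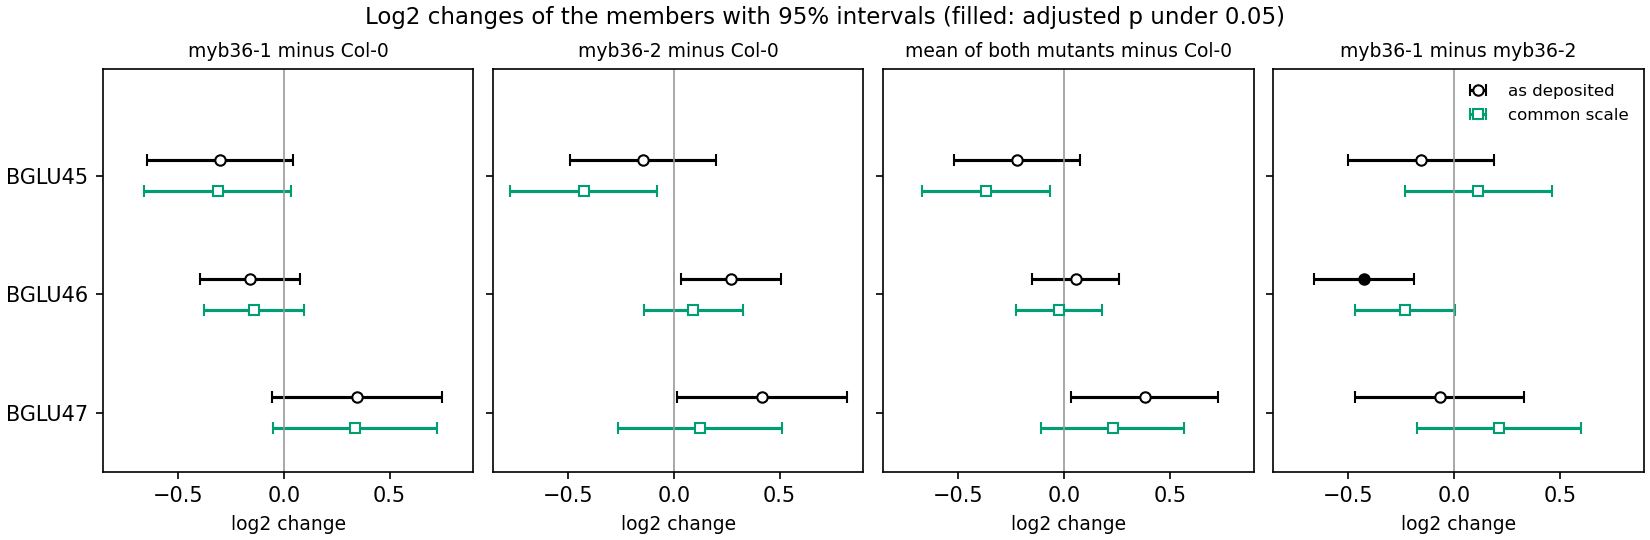
Log2 changes (horizontal axes) of BGLU45, BGLU46 and BGLU47 in the 4 comparisons, with 95% intervals of the fit, for the deposited values (circles) and the common scale (squares); filled symbols have an adjusted p under 0.05. The only filled symbol is BGLU46 in myb36-1 minus myb36-2 as deposited, at -0.43.

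Counted together, 0 of the 3 genes were called in myb36-1 with limma, where 0.495% of the 31325 probe sets were called, and 0 had an unadjusted p under 0.05, where 11% of all probe sets had one. In myb36-2, 0 of 3 were called, where the shares called were 21.3% with deposited values and 10.1% on the common scale. As deposited 2 of the 3, BGLU46 and BGLU47, had an unadjusted p under 0.05 there with a positive change, where 37% of all probe sets had such a p. On the common scale 1 of 3 did, BGLU45, with a negative change, where 27.4% of all probe sets did. In the mean of both mutants 0 of 3 were called, against 5.32% of all probe sets as deposited and 3.09% on the common scale. The changes of the mean were -0.22 ± 0.13 for BGLU45, 0.05 ± 0.09 for BGLU46 and 0.38 ± 0.15 for BGLU47 (SE, n = 3 arrays per line). The common scale gave -0.37 ± 0.13 for BGLU45, -0.02 ± 0.09 for BGLU46, with the opposite sign, and 0.23 ± 0.15 for BGLU47. Both mutants are set against the same 3 Col-0 arrays, so their changes are not independent of each other.

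The arrays limited what could be called. The standard deviation within lines was 0.210 for BGLU45, 0.124 for BGLU46 and 0.251 for BGLU47 on the log2 scale, against a median of 0.147 over all tested probe sets. With these spreads, a change in myb36-1 would have had to reach 0.88 for BGLU45, 0.60 for BGLU46 and 1.02 for BGLU47 to pass. In myb36-2, where many more probe sets passed, the corresponding changes were 0.49, 0.33 and 0.57. Smaller changes than these were not detectable here as calls. BGLU45 and BGLU47 also read below the median of every array. Among all tested probe sets, 5.37% had a lower log2 change in myb36-1 than BGLU45, 16.3% a lower one than BGLU46 and 95.2% a lower one than BGLU47. In myb36-2 the shares were 10.1% for BGLU45, 66.0% for BGLU46 and 81.1% for BGLU47.

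Between the mutant lines, BGLU46 was lower in myb36-1 than in myb36-2 by a log2 difference of -0.43 ± 0.10 (95% interval from -0.67 to -0.19, adjusted p = 0.028 in limma), and the arrays of the lines did not overlap. This was 1 of the 3 genes, where 15.4% of all probe sets were called, 14.5% being lower in myb36-1, and where the myb36-1 arrays lay below the myb36-2 arrays for 34.8%. The median difference across them was -0.17. On the common scale the difference of BGLU46 was -0.23 ± 0.10 (adjusted p = 0.25 in limma), and 4.12% of probe sets were called. The call was also lost without myb36-1 replicate 1 or 2 and without any single myb36-2 array, with adjusted p between 0.055 and 0.075 in limma, against 0.023 to 0.075 over all 9 omissions. BGLU45 differed by -0.16 ± 0.15 as deposited and 0.11 ± 0.15 on the common scale, and BGLU47 by -0.07 ± 0.18 and 0.21 ± 0.17, without passing. The 95% intervals on the common scale were -0.23 to 0.46 for BGLU45 and -0.18 to 0.60 for BGLU47, so the lines are not shown to be alike in either gene.

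The 3 genes were also compared with one another by taking, in each array, the log2 value of one minus that of another, which removes an offset shared by the whole array. This comparison was chosen after the values of the 3 genes were seen and is given as a description. An exact permutation test was run on it, but it cannot serve as support for a comparison picked from the same values. Levels of different probe sets cannot be ranked, since probes differ in how strongly they bind, and only the shift of such a difference between lines was read. BGLU47 minus BGLU45 averaged 0.07 ± 0.31 in myb36-1, -0.02 ± 0.31 in myb36-2 and -0.58 ± 0.14 in Col-0 (SD, n = 3 each). All 6 mutant arrays, from -0.38 to 0.41, lay above all 3 Col-0 arrays, from -0.73 to -0.44. The same held for 9.48% of all other probe sets when BGLU45 was subtracted from them. The shift over both mutants was 0.61 as deposited and 0.60 on the common scale, and both mutants share the 3 Col-0 arrays. On neither scale did this shift pass (adjusted p = 0.21 in the exact permutation test, over 9 comparisons per scale). Before adjustment, the smallest p this exact permutation test could give was 0.012 with 6 mutant arrays and 0.1 with 3. Comparisons of a single mutant with Col-0 could therefore not pass, whatever their values.

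BGLU46 minus BGLU45 shifted by 0.14 in myb36-1 and 0.41 in myb36-2, and BGLU47 minus BGLU46 by 0.51 and 0.15 in the same lines. As deposited, the arrays of the mutant and of Col-0 overlapped in each of these 4 comparisons. On the common scale BGLU46 minus BGLU45 shifted by 0.52 in myb36-2. Its arrays, from 2.46 to 2.93, then lay just above those of Col-0, from 1.99 to 2.45, and the rest still overlapped. The share of other probe sets that did so was not measured. Over the 9 arrays the values of BGLU45 and BGLU46, neighbours on the chromosome, correlated with r = 0.25 as deposited and 0.01 on the common scale. BGLU45 and BGLU47 correlated with -0.09 and -0.07, and BGLU46 and BGLU47 with -0.01 and -0.52. These are descriptions over arrays that share 3 lines. After the mean of each line was taken out, the correlation of BGLU45 with BGLU46 was 0.14 as deposited, that of BGLU45 with BGLU47 was 0.34 and that of BGLU46 with BGLU47 was -0.49.

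**Figure D3:**
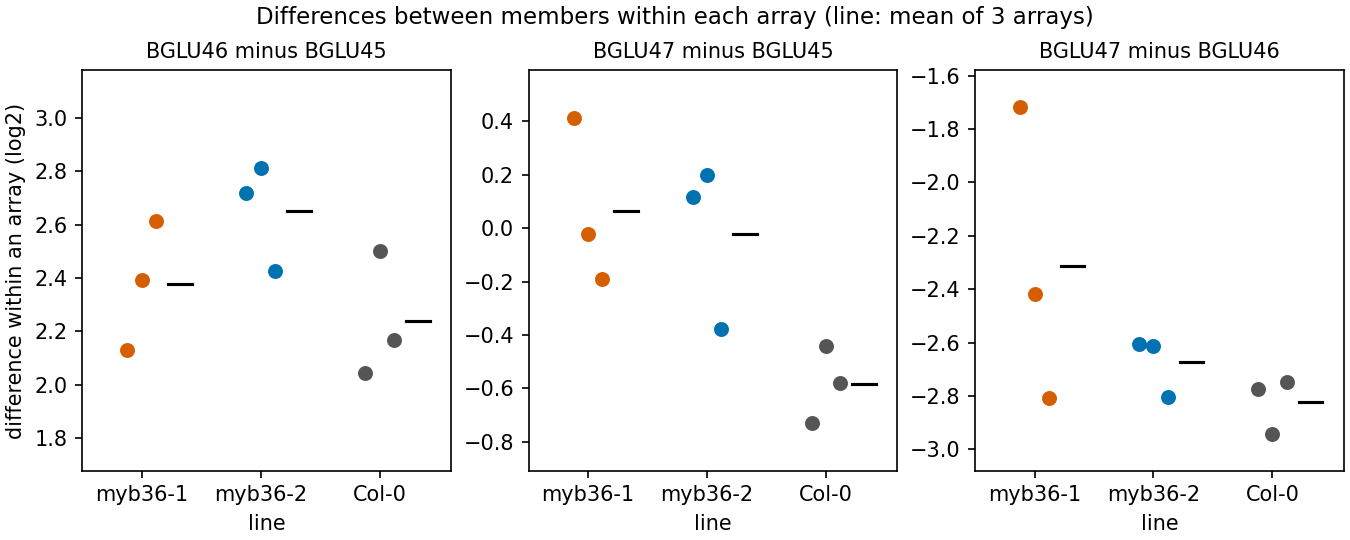
Differences between the deposited log2 values of a pair of genes within each array (vertical axes) for myb36-1, myb36-2 and Col-0; points are arrays and lines are means of 3 arrays. In BGLU47 minus BGLU45 all 6 mutant arrays lie above the Col-0 arrays, whereas the lines overlap in the other pairs.

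Few of the other GH1 genes were called. Of 45 other GH1 genes listed, 21 were measured, among them PYK10 (BGLU23), BGLU21 and BGLU22, root glucosidases known for cleaving the coumarin glucoside scopolin, and BGLU42, known for a part in root immunity and coumarin secretion. In myb36-1, 0 of the 21 were called with limma and 1, BGLU44, had an unadjusted p under 0.05. The median log2 change of the 21 was 0.04 in myb36-1. In myb36-2, 2 rose and 0 fell as deposited (background 19.3% higher, 2.02% lower), with a median of 0.10 against 0.16 over all probe sets. With the arrays on the common scale 0 rose and 1 fell (background 4.65% higher, 5.46% lower), and the median was -0.02. The 1 that fell was BGLU41, by 0.44 (adjusted p = 0.048 in limma), a gene named after its values were seen.

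The pair that rose in myb36-2 as deposited was BGLU24 and BGLU31. BGLU24 was at 3.40, 2.99 and 3.67 in myb36-1, 4.04, 3.80 and 4.49 in myb36-2, and 3.05, 3.30 and 3.22 in Col-0. It changed by 0.16 ± 0.20 in myb36-1, without passing, and by 0.92 ± 0.20 in myb36-2 (adjusted p = 0.014 in limma). The myb36-2 arrays stood above all others. Of all tested probe sets, 35.9% had them above all Col-0 arrays and 34.8% above all myb36-1 arrays as deposited. BGLU31 was at 0.29 ± 0.24 in myb36-1 and rose by 0.78 ± 0.24 in myb36-2, near the threshold (adjusted p = 0.049 in limma). Neither passed on the common scale. BGLU32 was at 0.27 in myb36-1 and 0.53 in myb36-2 without passing.

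BGLU44, known for a beta-mannosidase activity, had the most negative change of the family in the mean of both mutants. Its values were 7.48, 7.65 and 7.73 in myb36-1, 7.69, 7.73 and 8.18 in myb36-2, and 8.38, 8.05 and 8.24 in Col-0. All myb36-1 arrays were below all Col-0 arrays, as they were for 9.87% of tested probe sets, and the myb36-2 arrays overlapped with Col-0. The change was -0.60 ± 0.15 in myb36-1 (adjusted p = 0.16 in limma), -0.35 ± 0.15 in myb36-2 and -0.47 ± 0.13 in the mean (adjusted p = 0.061 in limma), so it did not pass.

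**Figure D4:**
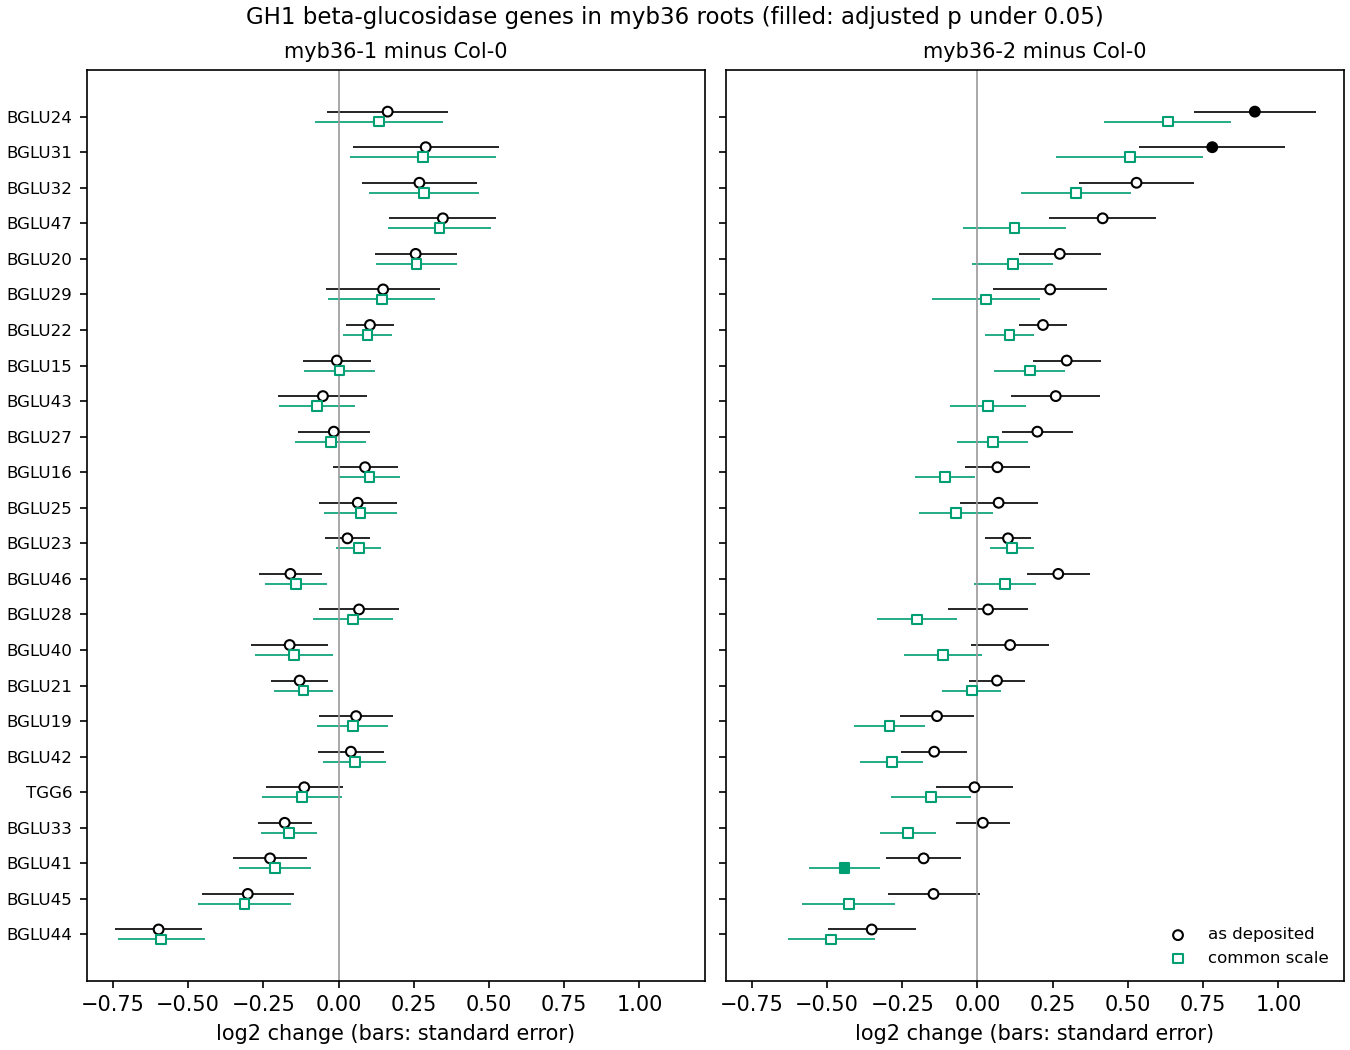
Log2 changes (horizontal axes, bars give the standard error of the fit) of the 24 measured GH1 beta-glucosidase genes in myb36-1 and myb36-2 relative to Col-0, ordered by the mean of both mutants; circles are deposited values, squares the common scale, and filled symbols have an adjusted p under 0.05. BGLU45 lies next to BGLU44 at the low end and BGLU47 near the high end, and no gene has a filled symbol in myb36-1.

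Glucosyltransferases were better covered, with 9 of 11 listed monolignol and phenylpropanoid glucosyltransferase genes measured. The list also holds enzymes known for other substrates than monolignols. Its counts and medians therefore do not stand for the reverse of the glucosidase reaction. In myb36-1, 0 of the 9 were called with limma and 2 had an unadjusted p under 0.05, as 11% of all probe sets had. In myb36-2, 5 of the 9 rose and 0 fell as deposited, where 19.3% of all tested probe sets rose. On the common scale 0 were called, where 10.1% of all tested probe sets were. Their median log2 change as deposited was 0.16 in myb36-1 and 0.40 in myb36-2. With the arrays on the common scale it was 0.14 in both, against -0.00 in myb36-1 and -0.01 in myb36-2 over all probe sets.

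UGT72E2, the main glucosyltransferase known to make coniferin and syringin, was at 5.25, 4.996 and 5.30 in myb36-1, 5.17, 5.32 and 4.96 in myb36-2, and 4.86, 4.48 and 4.77 in Col-0. All 6 mutant arrays were above all 3 Col-0 arrays as deposited, as they were for 6.36% of tested probe sets. It changed by 0.48 ± 0.14 in myb36-1 (adjusted p = 0.23 in limma) and rose by 0.44 ± 0.14 in myb36-2 (adjusted p = 0.048 in limma). Its change in myb36-2 on the common scale was 0.20 ± 0.14, which did not pass. UGT72E3, a close relative that also glucosylates monolignols, was at 3.91, 3.99 and 3.95 in myb36-1, 4.97, 4.94 and 4.12 in myb36-2, and 3.91, 3.87 and 3.59 in Col-0. It changed by 0.16 ± 0.21 in myb36-1 and rose by 0.88 ± 0.21 in myb36-2 (adjusted p = 0.018 in limma), while its change of 0.61 on the common scale did not pass. UGT72E1, which acts on the matching aldehydes, was at 0.01 in myb36-1 and 0.25 in myb36-2 without passing.

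The other risers in myb36-2 as deposited were UGT72B2 (AT1G01390) with 0.62 ± 0.17, UGT84A3 with 0.48 ± 0.14 and UGT84A4 with 0.40 ± 0.09. UGT84A3 and UGT84A4 were named after their values were seen and are of a group known to make glucose esters of hydroxycinnamic acids. Levels were low: the Col-0 means were 2.73 for UGT72B2, 2.94 for UGT84A3 and 3.07 for UGT84A4. The Col-0 array medians were 5.09 to 5.11. UGT71C1, which glucosylates lignans, was at 0.27 in myb36-1 and 0.32 in myb36-2, just short of the threshold in the second (adjusted p = 0.052 in limma). UGT72B1, known to glucosylate monolignols and pollutants, was at 0.03 in myb36-1 and -0.05 in myb36-2.

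**Figure D5:**
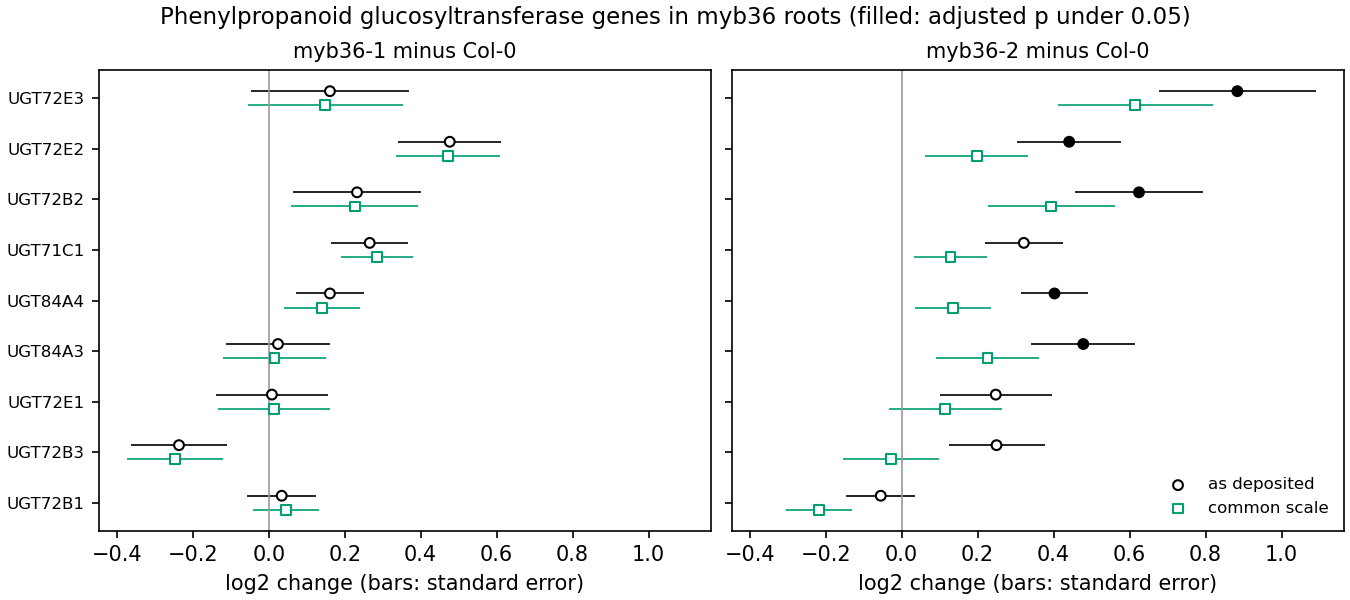
Log2 changes (horizontal axes, bars give the standard error of the fit) of 9 phenylpropanoid glucosyltransferase genes in myb36-1 and myb36-2 relative to Col-0, ordered by the mean of both mutants; circles are deposited values, squares the common scale, and filled symbols have an adjusted p under 0.05. The 5 filled symbols are all in myb36-2 as deposited, and the matching squares are open.

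Further along the pathway, 3 of 27 monolignol synthesis genes were measured. HCT, which makes the shikimate esters of the pathway, was at 0.13 in myb36-1 and 0.09 in myb36-2, and CCR2, a cinnamoyl-CoA reductase, at 0.11 in myb36-1 and 0.18 in myb36-2, without passing. CYP84A4 (AT5G04330), listed as F5H2 and known as a relative of ferulate 5-hydroxylase that acts in arabidopyrone synthesis, was at 4.39 to 4.93 in myb36-1, 3.83 to 4.09 in myb36-2 and 4.65 to 4.83 in Col-0. It changed by -0.11 ± 0.14 in myb36-1 and fell by 0.79 ± 0.14 in myb36-2 (adjusted p = 0.0061 in limma), and by 1.05 on the common scale (adjusted p = 0.0032 in limma). Of 17 laccase genes 2 were measured. LAC9 (AT5G01050) was at 0.26 in myb36-1 and rose by 0.61 in myb36-2 as deposited, without passing on the common scale. Its Col-0 mean was low, 3.14, where the Col-0 array medians were 5.09 to 5.11. LAC16 was at -0.36 in myb36-1 and -0.05 in myb36-2, without passing. Of all tested probe sets, 19.3% were called higher and 2.02% lower in myb36-2 as deposited, and 4.65% and 5.46% on the common scale. Among 6 of 9 listed lignification peroxidases, 3 rose in both mutants on both scales. Of all tested probe sets, 0.223% rose in both mutants as deposited and 0.208% on the common scale. The list was chosen with earlier results of these data known, so this count is a description and cannot serve as support. PRX52 was higher by 2.85 in myb36-1 and 2.57 in myb36-2, PRX71 (AT5G64120) by 1.28 and 1.70, and PRX49 (AT4G36430) by 0.85 and 0.82, with adjusted p of 0.0073 or less in limma as deposited. PRX72 (AT5G66390) fell by 0.40 in myb36-2 (adjusted p = 0.036 in limma) and by 0.54 on the common scale, and was at -0.35 in myb36-1 without passing. Of the secondary wall list of 9 genes only IRX10, a xylan synthesis gene, was measured, at 0.04 in myb36-1 and 0.24 in myb36-2 without passing. None of the 12 listed lignin regulators and none of the 3 lignan and dirigent genes was named by a probe set.

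The nearest measured genes in the reference gene order were read beside the 3 glucosidase genes. Before BGLU45, AT1G61780 was at 0.04 in myb36-1 and -0.01 in myb36-2 without passing. Between it and BGLU45, AT1G61795 was at -0.57 ± 0.12 in myb36-1 (adjusted p = 0.098 in limma) and fell by 0.42 ± 0.12 in myb36-2 (adjusted p = 0.035 in limma) and by 0.57 on the common scale. After BGLU46, AT1G61840 was at -0.15 and 0.08 and AT1G61850 at 0.08 and 0.24 in myb36-1 and myb36-2, without passing. Before BGLU47, AT4G21745 was at 0.16 in myb36-1 and rose by 0.77 ± 0.12 in myb36-2 (adjusted p = 0.0034 in limma). On the common scale it rose by 0.50 in myb36-2 (adjusted p = 0.026 in limma). Its Col-0 mean was low, 3.12, where the Col-0 array medians were 5.09 to 5.11. In myb36-2, 19.3% of all tested probe sets were called higher and 2.02% lower as deposited. The shares on the common scale were 4.65% and 5.46%. AT4G21740, AT4G21770 and AT4G21780 did not pass, with changes between -0.05 and 0.18.

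Genes with the most similar profile were ranked by Pearson correlation over the 9 arrays on the common scale, among the named genes that varied most. For BGLU45 these were AT2G34530 (r = 0.95), AT3G19030 (0.93), AT2G16385 (0.93), AT3G17890 (0.92) and AT5G05250 (0.91), out of 8274 candidates. For BGLU46 they were AT5G15420 (r = 0.95), AT5G38260, AT3G42570, AT3G13900 and AT2G22155, the lowest with 0.90. For BGLU47 they were RBL (r = 0.94), AT4G16835, AT1G54300, AT4G05475 and AT4G08869, the lowest with 0.90. As deposited these genes ranked from 1 to 9 for BGLU45, from 2 to 84 for BGLU46 and from 2 to 31 for BGLU47. Neither BGLU45 nor BGLU47 was among the 5 nearest of another of the 3 glucosidase genes. BGLU46 varied too little over the arrays to be a candidate, so it could not have been listed. The points share 3 lines of 3 arrays each, and no test was made.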

How the data were processed

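The analysis started from the deposited log2 expression values, which per the submitters' processing notes the authors computed with RMA. The RMA version is not stated in those notes. Genes were named from probe sets with 1 gene in the platform annotation (16722 of 38408), and the TAIR10.1 gene table served only to match names and find neighbouring genes. A block of 7083 unnamed probe sets with the lowest identifiers resembled controls and was set aside; no source says what they are. The remaining 31325 were fitted with limma 3.58.1 (R 4.3.3), giving each line its own mean, sharing the spread of all 9 arrays and using empirical Bayes moderation without trend. The 4 contrasts were each mutant against Col-0, their mean against Col-0, and myb36-1 against myb36-2, two-sided. The fit was tested on simulated data. A gene with several probe sets was taken at its brightest.

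Alternatives changed the scaling, the filter on dim probe sets, moderation, array weights, which arrays entered, a block for the replicate number, which probe sets were tested, and left out each array in turn. The members, the 11 gene lists (149 distinct genes, 46 measured) and the rules for naming genes were chosen with earlier results of these data known. Named by rule were the members, genes of each list called in both mutants, the 4 largest mean changes per list, the 5 most similar genes and the 2 nearest measured genes on each side. The comparison of members within arrays was added after their values were seen, and its exact permutation test is given as a description only. Probe sequences were not used here, so cross-hybridisation between BGLU45 and BGLU46 was not tested. The number of arrays limits the precision.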

Additional observations from a re-analysis of the deposited data

Results flagged for a closer look

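A difference between the mutant lines themselves, tested as myb36-1 minus myb36-2 in the deposited values with limma, was called for 6 of the 57 genes examined (members, listed genes and neighbours), against 15.4% of the probe sets as a whole. BGLU46 differed by -0.43 (adjusted p = 0.028 in limma), with the means of the mutants on opposite sides of the Col-0 mean. Neither mutant passed against Col-0 for BGLU46. BGLU24, of the same enzyme family, differed by -0.76 (adjusted p = 0.036), and the glucosyltransferase genes UGT72E3 and UGT72B3 by -0.72 (adjusted p = 0.045) and -0.49 (adjusted p = 0.033), UGT72B3 being named after its values were seen. AT4G21745, beside BGLU47, differed by -0.61 (adjusted p = 0.011). These 5 were lower in myb36-1, where the median difference across all tested probe sets was -0.17, and none of the 5 passed on the common scale. CYP84A4 (listed as F5H2) was higher in myb36-1 by 0.68 (adjusted p = 0.014), and on the common scale by 0.96 (adjusted p = 0.0087).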

How the results depend on the processing

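Over the 12 changes of BGLU45, BGLU46 and BGLU47 (3 genes in 4 comparisons), 201 of 217 values under other settings kept the direction and the side of the threshold, and 7 turned the direction. Many settings alter only the spread or the probe sets tested and return the same log2 change. Omitting an array of a line outside the comparison does so too. For these values the direction was fixed in advance, so the count does not measure how stable the directions are. With quantile normalisation (the common scale) and with array medians set equal, the mean change of BGLU46 was -0.025 and -0.044, and myb36-1 minus myb36-2 was 0.11 and 0.085 for BGLU45 and 0.21 and 0.17 for BGLU47, all turned in sign. The call of BGLU46 between the mutants was lost at -0.23 and -0.19 in the same settings, and at -0.43 with only the arrays of the lines compared (adjusted p = 0.051 in limma). Leaving out 1 array at a time gave -0.53 to -0.34 for that difference, called in 4 of 9 omissions, -0.28 to 0.079 for BGLU47 between the mutants, positive without myb36-1 replicate 3, and 0.32 to 0.51 for BGLU47 in myb36-2, called only without myb36-1 replicate 1. Same-numbered arrays correlated between -0.19 and 0.08 in their deviations, and other-numbered arrays between -0.17 and 0.17. No shared part by number was seen, but with 3 arrays per line this cannot show whether the numbers pair samples. With the replicate block no call of the 3 genes changed (BGLU46 between the mutants -0.43, adjusted p = 0.036 in limma). Calls over all tested probe sets numbered 155 in myb36-1, 6669 in myb36-2, 1668 in the mean and 4836 between the mutants. They numbered 3166, 969 and 1291 on the common scale for the last 3, and 4082, 1024 and 1724 with medians equal. Among the brighter probe sets, where only BGLU46 of the 3 genes remained, they were 3136, 1087 and 2127. The block gave 1075 in the mean. In myb36-1 they were 94 with only the compared lines, 81 with all deposited probe sets tested and 98 with 1 probe set per gene; in the mean 855 and 1111 with the last 2 settings, and 4119 in myb36-2 with the last. Omissions gave 74 to 126, 3890 to 6409, 443 to 1403 and 2551 to 4476 calls in the 4 comparisons. The causes were not tested. Signal over background was not measured here.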
